A study of Mus musculus with 6 samples.

Results

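The enzymes of glycolysis and of the pentose phosphate pathway were followed in 6 primary thymic lymphomas of mice, each measured on 1 Affymetrix microarray. The genes were set by a list of 37 glucose transporters, enzymes, lactate transporters and pyruvate dehydrogenase kinases. A gene was read where a probe set of the array carried exactly its symbol, and by its brightest probe set over the 6 arrays. This held for 33 of the 37, out of 18194 genes with a symbol of their own on the array, and Gpi1, Pfkfb1, Eno1 and G6pdx are not analysed here.

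All 6 mice had the genotype IkL/L at the gene for Ikaros, a transcription factor of lymphocytes, and carried CD4-Cre, a transgene active from developing thymocytes on. In 3 of them, aged 8 to 10 weeks, Notch1 was floxed (Notch1f/f), and the labels give a deletion of its promoter and exon 1 in the tumour. The other 3, aged 18 to 20 weeks, had wild-type Notch1 (Notch1+/+). Age and genotype changed together and cannot be told apart, and the cells were a mechanical suspension of the tumour with no sorting step in the labels. In such bulk samples, fewer cells of a type and less RNA per cell cannot be told apart.

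Glycolysis splits glucose into pyruvate. Hexokinase traps glucose in the cell, phosphofructokinase commits it to the pathway, and lactate dehydrogenase turns pyruvate into lactate, which monocarboxylate transporters carry out. The pentose phosphate pathway branches off after hexokinase and supplies NADPH and the ribose of nucleotides, and its non-oxidative enzymes return surplus sugars to glycolysis. Dividing thymocytes and leukaemic T cells are known for a high flux through both, and the transcription factors Myc and HIF-1 are known to activate many of these genes.

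The promoters of the 4 genes whose tumour groups did not overlap are shown because Myc and HIF-1 bind short motifs in such regions. Each run is the 250 bases before the annotated start in the mouse genome build GRCm38.p6, from RefSeq, taken from the window listed first for the gene. Pfkl lies at chr10:78009808-78010057 (minus strand), Pfkm at chr15:98092339-98092588 (plus strand), Ldha at chr7:46845554-46845803 (plus strand) and Rpe at chr1:66700581-66700830 (plus strand). The annotated gene spans begin at 46842274 for Ldha and at 66700797 for Rpe. The Ldha window thus lies inside its gene, and the end of the Rpe window reaches into its gene. Capitals mark CACGTG, the E-box that Myc binds, and ACGTG or GCGTG, the core that HIF-1 binds, on either strand.
Pfkl: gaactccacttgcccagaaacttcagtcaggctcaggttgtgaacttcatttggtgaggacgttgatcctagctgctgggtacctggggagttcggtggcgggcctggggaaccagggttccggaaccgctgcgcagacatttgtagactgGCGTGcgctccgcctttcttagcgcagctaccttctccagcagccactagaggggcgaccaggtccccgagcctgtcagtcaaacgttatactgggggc
Pfkm: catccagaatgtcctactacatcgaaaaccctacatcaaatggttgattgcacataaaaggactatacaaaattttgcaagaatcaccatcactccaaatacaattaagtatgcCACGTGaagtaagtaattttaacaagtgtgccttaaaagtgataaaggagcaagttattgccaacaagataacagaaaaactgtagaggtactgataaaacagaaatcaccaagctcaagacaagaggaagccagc
Ldha: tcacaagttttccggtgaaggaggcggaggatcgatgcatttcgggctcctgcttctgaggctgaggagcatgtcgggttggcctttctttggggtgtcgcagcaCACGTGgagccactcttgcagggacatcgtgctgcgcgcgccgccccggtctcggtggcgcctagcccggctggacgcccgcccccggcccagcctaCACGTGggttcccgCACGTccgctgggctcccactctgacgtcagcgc
Rpe: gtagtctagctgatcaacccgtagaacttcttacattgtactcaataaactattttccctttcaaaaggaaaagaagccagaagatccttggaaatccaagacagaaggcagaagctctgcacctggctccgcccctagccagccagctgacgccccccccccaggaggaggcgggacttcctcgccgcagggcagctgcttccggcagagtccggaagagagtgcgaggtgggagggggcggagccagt
Ldha held 2 copies of CACGTG, which begin 145 and 48 bases before the start, and a further ACGTG core on the opposite strand at 34 bases. Pfkm held 1 CACGTG at 136 bases in this window, the first of 4 listed for the gene. Pfkl held 1 GCGTG at 99 bases, and Rpe held none of the 3 motifs in this window. Every CACGTG also contains ACGTG. Among the first windows of all 27025 genes, 6.05% held CACGTG, 16.6% ACGTG and 28.2% GCGTG, and among the 36 windows found for the 37 genes the counts were 5, 13 and 20. These matches describe letters and do not show binding.

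No gene of the 2 pathways passed the test between the genotypes. The largest difference lay at the committed step, where Pfkl, the liver-type phosphofructokinase, was 2.73-fold lower in the Notch1f/f tumours, with an adjusted p of 0.202 in limma. Rpe, the ribulose phosphate epimerase of the pentose phosphate pathway, was 1.82-fold lower, and Ldha, the main lactate-forming dehydrogenase, 1.26-fold lower. Among the later steps, Gapdh, Pgk1 and Pkm had log2 differences between -0.03 and 0.03, while Pgam1, phosphoglycerate mutase, was lower, at -0.59. Values are MAS5 intensities as deposited. Differences and folds are those of log2(intensity + 16), Notch1f/f minus Notch1+/+, which understates the change of dim genes. They were tested with limma over 27022 probe sets, and p-values were adjusted over all of these by Benjamini-Hochberg.

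Of the 33 genes, 31 entered the test. Eno2 was too dim, and Gapdh is read by control probe sets, which were left out. At an adjusted p of 0.05, 0 of the 31 passed in limma, where 0.0415% of all 12042 tested genes did, and the smallest adjusted p was 0.202, for Pfkl. At an unadjusted p of 0.05, 5 of the 31 were lower and 0 higher, against 6.21% lower and 6.97% higher of all tested genes. The 5 were Pfkl, Rpe, Ldha, Hk2 and Pgam1. This count was 2 without Notch1f/f tumour 1 or without Notch1+/+ tumour 2, 3 without Notch1f/f tumour 3 and 8 without Notch1+/+ tumour 1. The groups did not overlap for 4 genes, all lower in the Notch1f/f tumours, and the background of such genes was 9.14% lower and 9.21% higher. Counted over the 65 tested probe sets of these genes, 0 passed the adjusted threshold, against 0.0185% of all 27022. At an unadjusted p of 0.05, 8 of the 65 were lower and 0 higher, where 7.6% and 5.94% of all probe sets were.

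Of the 31 tested genes, 22 had a log2 difference below 0, while 51.6% of all tested genes did, and of the 65 probe sets 51 did, against 55.0%. Over the 33 genes read, 24 were below 0 and 9 above. Their median was -0.14, against -0.01 over all genes read and -0.04 over all tested probe sets. With each array centred on its own median, the median of the 33 was -0.05. The range ran from -1.45 for Pfkl to 0.33 for Pdk1. The median unadjusted 95% interval reached 0.56 to each side.

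**Figure D1:**
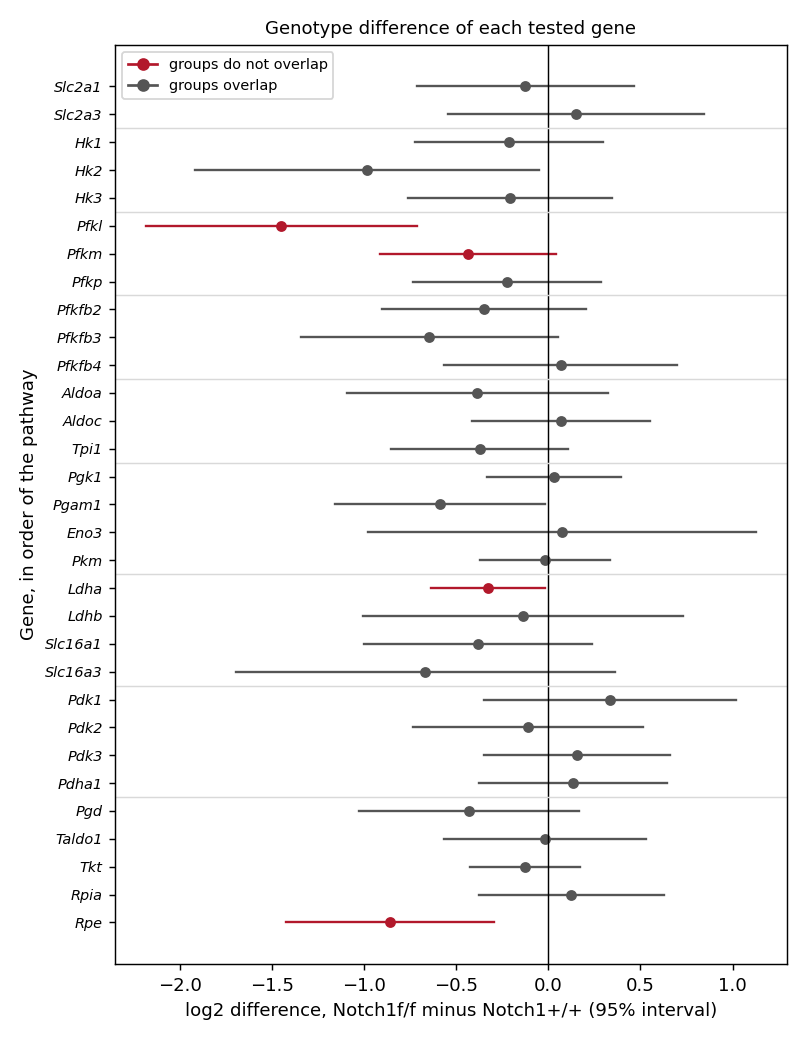
Log2 difference (Notch1f/f minus Notch1+/+, horizontal axis) of each of the 31 tested genes, ordered by pathway step from glucose uptake at the top to the pentose phosphate pathway at the bottom. Points are limma estimates, bars are 95% intervals, and red marks the 4 genes whose tumour groups did not overlap. Pfkl at -1.45 lies farthest from 0, and Pdk1, Pdk3 and Pdha1 lie above 0 with intervals that span it.

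The arrays held 45101 probe sets each, and between 23.1% and 25.0% of them exceeded an intensity of 100. The 2 Notch1 probe sets were not lower in the Notch1f/f tumours, at 1346 to 2212 against 568 to 1793 and at 3043 to 3419 against 2532 to 3637. Their positions in the transcript were not looked up, so they check neither the deletion nor the labels. All 11 T lineage markers read were above the brightness limit, and their intensities summed to between 21763 and 26976 in Notch1f/f tumours and to between 18030 and 21055 in Notch1+/+ tumours. Of 10 macrophage markers, 9 had a difference above 0, and their sums were 1512 to 2954 against 268 to 974. All 11 markers of dividing cells had a difference below 0, with sums of 12969, 18883 and 12524 in Notch1f/f tumours 1, 2 and 3, against 19774 to 21107 in the Notch1+/+ tumours. Notch1f/f tumour 2 lay nearest to the Notch1+/+ tumours there. It was also the highest of its group for Hk2, Pgam1, Pfkl, Ldha and Rpe below. For Pfkm the highest of the group was Notch1f/f tumour 1, and for Tpi1, Aldoa and Pgd Notch1f/f tumour 3. Of 10 neutrophil markers 9 were below 0, with sums of 140 to 217 against 249.5 to 368. Of 6 skeletal muscle markers, whose tissue is rich in Pfkm, Eno3 and Aldoa, only Acta1 was above the brightness limit. It was dim, at 15.3 to 17.1 against 12.6 to 13.6. Ckm, Myh1, Myh4, Tnnt3 and Mb had a mean under the limit, although Ckm reached 36.7 in Notch1+/+ tumour 2. The ratio of the 3' to the 5' control probe set of beta-actin was 1.35 to 1.64 in the Notch1f/f tumours and 1.36 to 2.23 in the Notch1+/+ tumours, where Notch1+/+ tumour 1 had the highest. The 3' control of 18S ribosomal RNA gave 249.5 to 319 on the Notch1f/f arrays, against 64.8 to 125 on the Notch1+/+ arrays. The part of these markers and controls in the differences of the glycolytic genes was not tested.

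Glucose enters T cells mainly through the transporters GLUT1 and GLUT3, encoded by Slc2a1 and Slc2a3. Slc2a1 had intensities of 114.5, 158.5 and 127 in Notch1f/f tumours 1, 2 and 3, against 126, 199 and 122 in Notch1+/+ tumours 1, 2 and 3. The groups overlapped, with tumour 2 the highest in each, and the log2 difference was -0.12 (95% interval -0.71 to 0.46). Slc2a3 had 724, 338 and 728 in the Notch1f/f tumours, against 404, 565 and 569 in the Notch1+/+ tumours. Here Notch1f/f tumours 1 and 3 were the highest and Notch1f/f tumour 2 the lowest of all 6. Its 2 brighter probe sets gave log2 differences of 0.15 and 0.19, while the 2 dim ones gave -0.62 and -0.41, and none passed.

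Hexokinases phosphorylate glucose on entry. Hk2, the inducible form bound to mitochondria, had 47.0, 138.5 and 37.5 in the Notch1f/f tumours, against 97.9, 182.5 and 162.5 in the Notch1+/+ tumours. Notch1f/f tumours 1 and 3 were low, while Notch1f/f tumour 2 lay within the Notch1+/+ range. The log2 difference was -0.98 ± 0.41 (SE, limma adjusted p = 0.351), and it ranged from -1.46 to -0.69 with 1 tumour left out. Hk1, the constitutive form, had 264, 239.5 and 343 against 319, 386 and 282 in the Notch1+/+ tumours, which overlap (log2 difference -0.21, 95% interval -0.72 to 0.29). With 1 tumour left out it ranged from -0.36 to -0.098 (without Notch1f/f tumour 3 and without Notch1+/+ tumour 2), and it was -0.11 without Notch1f/f tumour 2. A dimmer Hk1 probe set gave -0.54 ± 0.30 with overlap (limma adjusted p = 0.449), and averaged probe sets gave -0.38 (limma adjusted p = 0.454). Hk3, typical of myeloid cells, stayed at or under 15.7 on every array.

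Phosphofructokinase exists as liver, muscle and platelet subunits, encoded by Pfkl, Pfkm and Pfkp, which form mixed tetramers. Pfkl had 74.4, 203 and 169 in Notch1f/f tumours 1, 2 and 3, against 420, 436 and 364 in the Notch1+/+ tumours. Every Notch1f/f tumour was lower than every Notch1+/+ tumour, and Notch1f/f tumour 1 was the lowest. The log2 difference was -1.45 ± 0.33 (SE, unadjusted p = 0.00152, limma adjusted p = 0.202), and the exact two-sided permutation p was 0.1, the smallest that 3 against 3 allows. A second probe set gave the same picture, with 57.3, 157 and 132.5 in the Notch1f/f tumours against 279, 310 and 258.5 in the Notch1+/+ tumours (log2 difference -1.27 ± 0.33). The third was dim, at 16.1 to 27.7 against 23.4 to 42.1, and its groups overlapped (-0.26 ± 0.24).

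The groups did not overlap for Pfkm either. It had 183, 180 and 166 in the Notch1f/f tumours, against 207.5, 272.5 and 255 in the Notch1+/+ tumours, with the 3 Notch1f/f values close together. The log2 difference was -0.43 ± 0.21 (SE, limma adjusted p = 0.3999). Pfkp had 318, 428 and 330 against 526, 391 and 357 in the Notch1+/+ tumours. These groups overlapped, and the log2 difference was -0.23 ± 0.23 (limma adjusted p = 0.677). Leaving out Notch1+/+ tumour 1 gave -0.068, leaving out Notch1f/f tumour 1 gave -0.15, and leaving out Notch1f/f tumour 2 gave -0.35. With the 3 probe sets averaged it was -0.62 (unadjusted p = 0.0196, limma adjusted p = 0.299). A dimmer Pfkp probe set differed more, at 18.2, 68.6 and 22.4 in the Notch1f/f tumours against 59.3, 113 and 128 in the Notch1+/+ tumours (log2 difference -1.22 ± 0.40, limma adjusted p = 0.295). All 7 tested probe sets of the 3 subunits had a difference below 0, against 55.0% of all tested probe sets. Sets of the same gene are not independent. Whether Pfkl differed more than Pfkm or Pfkp was not tested.

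**Figure D2:**
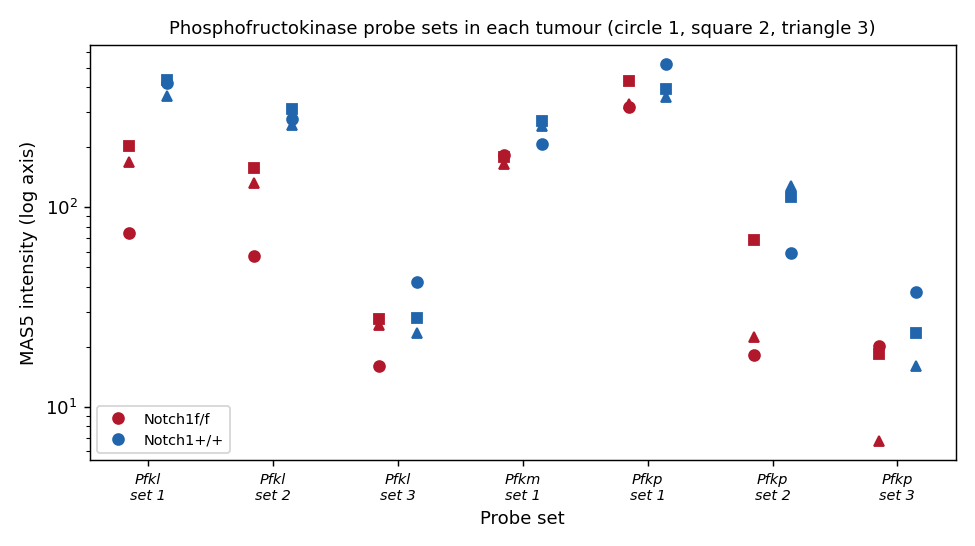
MAS5 intensity (log axis) of every tested probe set of Pfkl, Pfkm and Pfkp in each tumour, with Notch1f/f in red to the left of Notch1+/+ in blue. Circles, squares and triangles stand for tumours 1, 2 and 3 of a group. The groups are apart in the first 2 Pfkl sets and in the Pfkm set, and overlap in the other 4.

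The PFKFB enzymes make and remove the sugar bisphosphate that activates phosphofructokinase. Pfkfb3, the form with the strongest kinase activity, had 33.4, 49.5 and 34.5 in the Notch1f/f tumours, against 67.3, 109 and 44.4 in the Notch1+/+ tumours. Only Notch1f/f tumour 2 reached into the Notch1+/+ range (log2 difference -0.65 ± 0.31, limma adjusted p = 0.392). The difference was -0.38 without Notch1+/+ tumour 2 and -0.39 with a pseudocount of 64. Its second, dimmer probe set had 14.9, 15.2 and 9.90 against 17.9, 22.3 and 17.4, without overlap. Pfkfb2 had 38.6, 28.9 and 20.8 against 49.7, 39.0 and 35.9 in the Notch1+/+ tumours, where only Notch1f/f tumour 1 reached the Notch1+/+ range (log2 difference -0.35 ± 0.25). A dim Pfkfb2 set was lower without overlap, at 0.90 to 9.30 against 10.1 to 14.1. Its Notch1f/f mean of 5.20 was under the brightness limit of 7.60, so it was tested only through the Notch1+/+ tumours. Pfkfb4 ranged from 36.4 to 65.6 in the Notch1f/f tumours and from 32.7 to 60 in the Notch1+/+ tumours.

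Aldolase and triose phosphate isomerase split the sugar into trioses. Tpi1 had 1012, 1227 and 1548 in the Notch1f/f tumours, against 1338, 1595 and 1973 in the Notch1+/+ tumours, which overlap (log2 difference -0.37 ± 0.21, limma adjusted p = 0.460). Without Notch1f/f tumour 1 or without Notch1+/+ tumour 3 it was -0.23. Aldoa, the aldolase of most tissues, had 746, 782 and 1273 against 756, 1692 and 1311. On this set Notch1+/+ tumour 1 was as low as Notch1f/f tumours 1 and 2, and the 5 Aldoa probe sets had log2 differences from -0.39 to -0.16. A dimmer Aldoa set was lower without overlap, at 381, 313 and 376 against 414, 414 and 422, and all others overlapped. Aldoc was dim, at 16.8 to 24.6 against 14.5 to 25.2.

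Gapdh opens the steps that return ATP. It had 5151, 6003 and 6867 in the Notch1f/f tumours on the brightest of its 3 control probe sets, against 4989, 6281 and 7228 in the Notch1+/+ tumours. With control probe sets kept in the fit, an alternative chosen after seeing the data, its log2 differences were -0.03, 0.08 and 0.08 (limma adjusted p from 0.833 to 0.950). Pgk1, phosphoglycerate kinase, had 2340, 2464 and 3186 against 2428, 2621 and 2710 in the Notch1+/+ tumours (log2 difference 0.03, 95% interval -0.33 to 0.39). Its 3 probe sets had log2 differences from -0.02 to 0.12. Pkm, pyruvate kinase, had 2570, 2016 and 2521 against 2395, 2212 and 2556 in the Notch1+/+ tumours. Its log2 difference of -0.02 had a 95% interval from -0.37 to 0.33. Gapdh, Pgk1 and Pkm therefore had overlapping groups, and the spliced forms of Pkm were not analysed here.

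Pgam1, which moves the phosphate of phosphoglycerate ahead of enolase, had 522, 930.5 and 614 in the Notch1f/f tumours against 804, 1050 and 1233 in the Notch1+/+ tumours. Notch1f/f tumour 2 again lay within the Notch1+/+ range, and the log2 difference was -0.59 ± 0.25 (SE, limma adjusted p = 0.358). Eno3, the muscle enolase, had 119.5, 80.3 and 306 against 99.1, 239 and 107, so that 1 tumour of each group was high. Eno2, the neuronal enolase, reached at most 14.6 on any array.

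**Figure D3:**
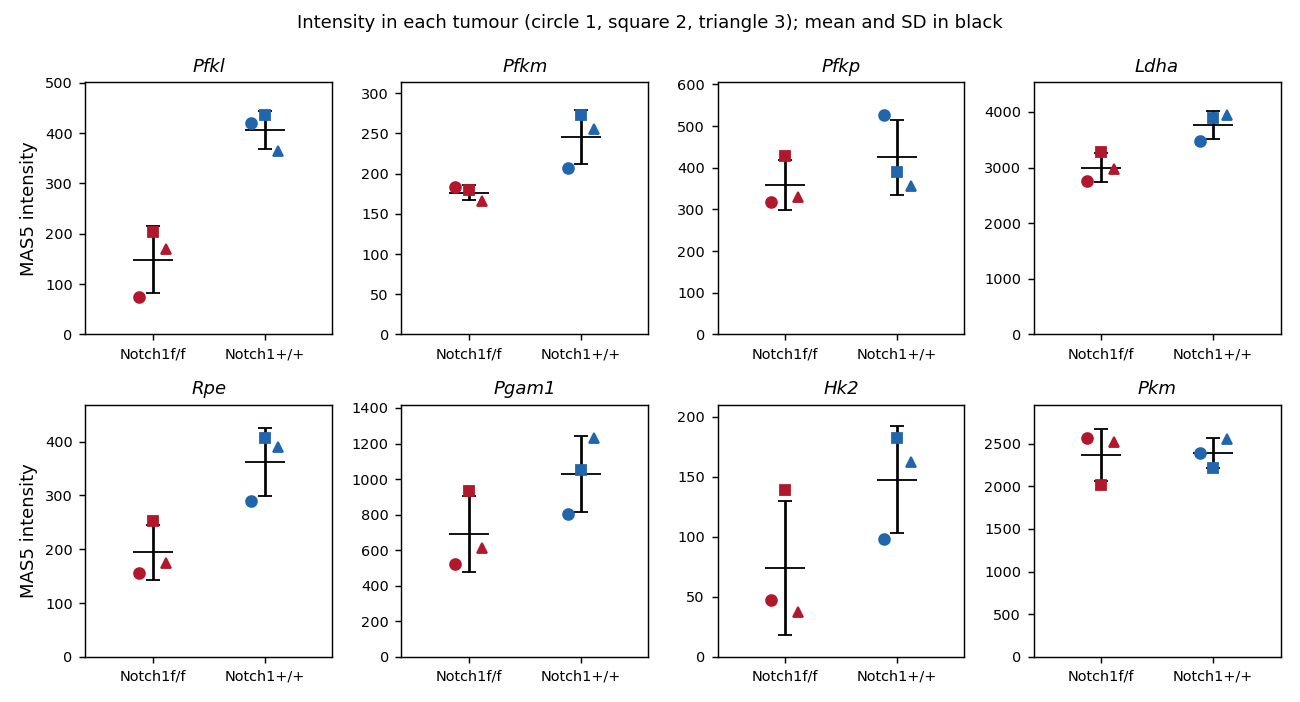
MAS5 intensity (linear axis from 0) of 8 genes in each tumour, Notch1f/f in red to the left and Notch1+/+ in blue to the right, with circles, squares and triangles for tumours 1, 2 and 3 and black bars for the mean and SD of 3 tumours. Pfkl, Pfkm, Ldha and Rpe are lower in all 3 Notch1f/f tumours, Notch1f/f tumour 2 lies in the Notch1+/+ range for Hk2 and Pgam1, and Pkm and Pfkp overlap.

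All 4 genes of lactate formation and transport had a log2 difference below 0, against 51.6% of all tested genes. Only for Ldha did the groups not overlap. Ldha had 2756, 3272 and 2974 in the Notch1f/f tumours, against 3476, 3885 and 3941 in the Notch1+/+ tumours, without overlap. The log2 difference was -0.33 ± 0.14 (SE, 95% interval -0.64 to -0.02, limma adjusted p = 0.351, exact two-sided permutation p = 0.1). It was -0.24 with median centring (limma unadjusted p = 0.192) and -0.42 with quantile normalisation (limma unadjusted p = 0.00581). Without trend the limma unadjusted p was 0.118. Ldhb, which favours the return of lactate to pyruvate, had 498, 551 and 1426 in the Notch1f/f tumours, against 1002, 905 and 580 in the Notch1+/+ tumours. Notch1f/f tumour 3 was far above its 2 companions on all 4 Ldhb probe sets, at 1236 to 1426, and the group means were 825 ± 521 and 829 ± 221 (SD, n = 3 each). Its log2 difference was -0.14 (95% interval -1.01 to 0.73), and the difference between Ldha and Ldhb was not tested.

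The lactate transporter MCT1, encoded by Slc16a1, had 2057, 2666 and 1152 in the Notch1f/f tumours, against 2333, 2235 and 2701 in the Notch1+/+ tumours. Notch1f/f tumour 3, the one with high Ldhb, was the lowest (log2 difference -0.38 ± 0.28). A dim second Slc16a1 probe set went the other way, at 20.5, 15 and 16.5 against 7.80, 7.10 and 12.8, and was the only tested probe set of the 65 that was higher without overlap, against a background of 8.13%. In the other direction 10 of the 65 were lower without overlap, against 10.4%. Slc16a3, the exporter MCT4 of highly glycolytic cells, was dim in the Notch1f/f tumours, at 5.90, 15.3 and 10.7. The Notch1+/+ tumours varied, at 66.6, 31.1 and 2.90, and the groups overlapped (log2 difference -0.67 ± 0.46, limma adjusted p = 0.535).

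Pyruvate dehydrogenase admits pyruvate to mitochondrial oxidation. Pdha1, the catalytic subunit of pyruvate dehydrogenase, had 1081, 1103 and 1128 in the Notch1f/f tumours, against 713, 1086 and 1308 in the Notch1+/+ tumours. The 3 Notch1f/f values lay inside the Notch1+/+ range, and the second probe set differed in sign (log2 differences 0.13 and -0.50). Pdk1, a kinase that inhibits the enzyme, had 688, 695 and 1246 against 958, 608 and 502 in the Notch1+/+ tumours. As for Ldhb, Notch1f/f tumour 3 was the highest of the 6, and the 4 Pdk1 probe sets had log2 differences of mixed sign, from -0.55 to 0.33. Pdk3 had 200 to 238 against 153 to 213, and Pdk2 reached at most 17.6 on any array.

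Of the 5 pentose phosphate genes read, 4 had a log2 difference below 0, against 51.6% of all tested genes. Rpe had 155, 253 and 175 in the Notch1f/f tumours, against 290, 407 and 389 in the Notch1+/+ tumours, without overlap. The log2 difference was -0.86 ± 0.25 (SE, unadjusted p = 0.00708, limma adjusted p = 0.277, exact two-sided permutation p = 0.1), and -0.49 with probe sets averaged (limma adjusted p = 0.318, with 0.0968 to 0.597 over all alternatives). A second Rpe probe set also had no overlap, at 130, 183 and 121 in the Notch1f/f tumours against 199, 243 and 211 in the Notch1+/+ tumours, and the third was at most 8.10 on any array. Rpia, the isomerase that acts on the same sugar phosphate, had 396, 457 and 319 against 422, 343 and 305 in the Notch1+/+ tumours, which overlap (log2 difference 0.12 ± 0.22).

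Tkt and Taldo1 encode transketolase and transaldolase, which link the pathway back to glycolysis. Tkt had 5641, 5427 and 6834 in the Notch1f/f tumours, against 6273, 6349 and 6857 in the Notch1+/+ tumours (log2 difference -0.13, 95% interval -0.43 to 0.17). This was -0.26 with quantile normalisation, -0.042 with median centring, and -0.025 with probe sets averaged. Leaving out Notch1f/f tumour 2 gave -0.063, and leaving out Notch1f/f tumour 3 gave -0.23. Its second probe set was lower without overlap, at 1473, 1613 and 1906 against 1919, 2106 and 2322, where Notch1f/f tumour 3 and Notch1+/+ tumour 1 were nearly equal. The third was dim and went the other way (log2 difference 0.40 ± 0.28). Taldo1 had 632, 682 and 720.5 against 469, 844 and 812. Pgd, the dehydrogenase that makes NADPH and ribulose phosphate, had 385, 440 and 601 in the Notch1f/f tumours, against 448, 743 and 770.5 in the Notch1+/+ tumours (log2 difference -0.43 ± 0.26, limma adjusted p = 0.487). Notch1+/+ tumour 1 was the lowest of its group for both.

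The tumours of a group were not alike. Notch1f/f tumour 1 had the lowest value of the 6 for 13 of the 33 genes, and Notch1f/f tumours 2 and 3 for 5 each. Notch1+/+ tumours 1, 2 and 3 were lowest for 5, 1 and 4 genes. Notch1+/+ tumour 2 was highest for 10 genes, Notch1+/+ tumour 3 for 9 and Notch1+/+ tumour 1 for 4. Notch1f/f tumour 3 was highest for 8 genes, while Notch1f/f tumours 1 and 2 were highest for 1 each. The median deviation of the 33 genes from their mean over the 6 tumours was -0.21, -0.08 and 0.08 on the log2 scale in Notch1f/f tumours 1, 2 and 3, and 0.01, 0.23 and 0.14 in Notch1+/+ tumours 1, 2 and 3. Over all tested genes the same medians lay between -0.02 and 0.02.

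**Figure D4:**
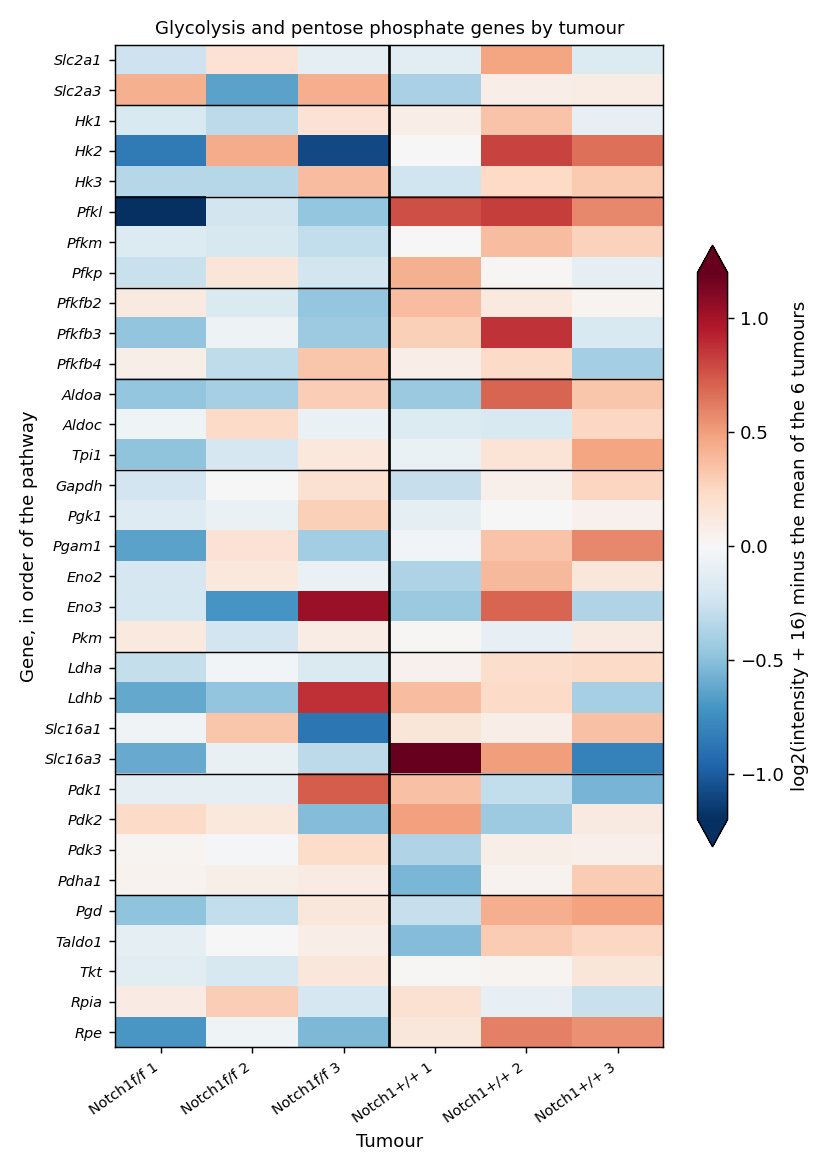
Log2(intensity + 16) of the 33 genes in each tumour minus the gene's mean over the 6 tumours, with genes in pathway order and the 3 Notch1f/f tumours left of the 3 Notch1+/+ tumours. The colour scale ends at 1.2 in each direction, which Pfkl in Notch1f/f tumour 1 and Slc16a3 in Notch1+/+ tumour 1 pass. Notch1f/f tumour 1 is mostly blue, and Notch1f/f tumour 3 is red for Eno3, Ldhb and Pdk1.

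Neighbouring pathways were counted in the same way, with 0 genes past the adjusted threshold in limma in each list except glycogen. Over all tested genes, 51.6% were below 0, and 6.21% were lower and 6.97% higher at an unadjusted p of 0.05. Of 25 other genes of glycolysis and glucose entry read, 14 were below 0, 19 were tested, and 0 and 1 passed an unadjusted p of 0.05 as lower and higher. The 1 was Bpgm, a mutase that diverts a triose intermediate and is abundant in red cells. It had 471, 244 and 499 in the Notch1f/f tumours against 223.5, 240 and 198 in the Notch1+/+ tumours (limma adjusted p = 0.313). Of 8 erythroid markers, 5 were read, with summed intensities of 31.6 to 60.8 against 20.1 to 69.6, and Hba-a1 and Epb42 were under the brightness limit. Minpp1, a phosphatase also able to act on the Bpgm product, was higher without overlap, at 486 to 643 against 398 to 481. The fructose transporter gene Slc2a5 was dim, at 3.70 to 9.70 against 10.0 to 19.9 (limma adjusted p = 0.456). Its groups barely missed each other. The Notch1f/f mean of 7.47 was under the brightness limit of 7.60, so Slc2a5 entered the test only through the Notch1+/+ tumours.

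Among 10 other pentose phosphate genes, 8 were below 0, and 2 of the 7 tested were lower at an unadjusted p of 0.05. Rbks, ribokinase, had 43.7, 39.9 and 52.9 in the Notch1f/f tumours, against 107, 64.8 and 74.0 in the Notch1+/+ tumours (limma adjusted p = 0.332). Of 13 genes of pyruvate entry read, 7 were below 0, and 1 of the 11 tested passed an unadjusted p, on the higher side. It was Emb, embigin, a chaperone of lactate transporters, with 939, 927 and 1190 in the Notch1f/f tumours, against 470, 654 and 362 in the Notch1+/+ tumours (log2 difference 1.05 ± 0.24, limma adjusted p = 0.202). Without overlap, 4 of the 11 were lower and 1 higher, against 9.14% and 9.21% of all tested genes. Among the 4 were the dehydrogenase subunit genes Pdhb and Dlat, at 1143 to 1283 against 1448 to 1945 and at 174 to 311 against 321 to 333.

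Of 22 genes of the tricarboxylic acid cycle, 15 were below 0 and 2 were lower at an unadjusted p of 0.05. Without overlap, 4 of the 22 were lower and 1 higher, against 9.14% and 9.21% of all tested genes. Fh1, fumarase, had 628, 797 and 673 in the Notch1f/f tumours, against 1060.5, 1030 and 1469 in the Notch1+/+ tumours (limma adjusted p = 0.258). Idh3a, a subunit of isocitrate dehydrogenase, had 717, 977 and 574 against 1036, 1126 and 1368, and Sucla2, a subunit of succinyl-CoA synthetase, 660 to 736 against 795 to 1079.

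The branch genes toward serine, hexosamines, glycerol and polyols were below 0 in 13 of 13, with a median of -0.24, and 4 were lower at an unadjusted p of 0.05, against 51.6% and 6.21% of all tested genes. Psat1, an aminotransferase of serine synthesis, had 415, 741 and 588 in the Notch1f/f tumours, against 859, 1581 and 1212 in the Notch1+/+ tumours (log2 difference -1.04 ± 0.28, limma adjusted p = 0.255). Gfpt2, which starts hexosamine synthesis, had 9.80 to 21.8 against 27.1 to 76.6, and Gnpnat1 of the same branch 72.2 to 105 against 107 to 174. Of 18 glycogen genes, 9 were below 0. Ppp1r3e, a targeting subunit of a glycogen phosphatase, was lower by 2.03 on the log2 scale (limma adjusted p = 0.0109). It had 2.10, 1.10 and 1.70 in the Notch1f/f tumours against 57.3, 50.9 and 60.1 in the Notch1+/+ tumours. The Notch1f/f values lie under the brightness limit of 7.60, so it entered the test only through the Notch1+/+ tumours. The size of its difference depends on the pseudocount. The branching enzyme gene Gbe1 was higher without overlap, at 63.9 to 79.4 against 33.1 to 52.8, and so was Gsk3b, a kinase that inhibits glycogen synthase, at 431 to 508 against 281 to 359.

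Of 23 regulators of glycolytic genes read, 14 were above 0, and of the 19 tested 6 were higher and 1 lower at an unadjusted p of 0.05, against 6.97% and 6.21% of all tested genes. Foxo1, a transcription factor held back by insulin and cytokine signals, had 424, 448 and 536 in the Notch1f/f tumours, against 341, 238 and 225 in the Notch1+/+ tumours (limma adjusted p = 0.274). Akt1, a kinase that promotes glucose uptake, had 817 to 917 against 457 to 623. Egln3, an oxygen sensor induced by HIF-1, was lower, at 413 to 441 against 575 to 811. The next 3 were chosen after their values were seen. Txnip, which restrains glucose uptake, had 1893, 594 and 2493 against 754, 430 and 378 in the Notch1+/+ tumours, where Notch1f/f tumour 2 overlapped (log2 difference 1.48 ± 0.48, limma adjusted p = 0.295). Hif1a had 849 ± 84.0 against 994 ± 173, and Myc 649 ± 269 against 882 ± 280 (SD, n = 3 each), both with overlap.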

How the data were processed

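RNA of 6 thymic lymphomas from separate mice was hybridised to Affymetrix arrays, 1 per tumour. The authors deposited linear MAS5 signal intensities (MAS5 per the submitters' processing notes, with its version not given in the sources used here). The arrays share a trimmed mean of 100 (2% left out at each end). In the platform annotation, 34945 probe sets had 1 symbol, 932 several and 9160 none. A pseudocount of 16 was added before log2. The 64 control probe sets and those with a mean log2 value under the 40th percentile (4.56, an intensity of 7.60) were left out. Genotypes were compared in limma 3.58.1 (lmFit, then eBayes with trend) under R 4.3.3, two-sided, with Benjamini-Hochberg adjustment and no covariate, since the labels give no batch. The fit was tested on simulated data. Exact permutation tests used SciPy 1.17.1. The chosen probe sets of 6 genes are of the kinds x or s, which can detect more than 1 transcript. For 6 of 17 genes with several tested probe sets (Slc2a3, Pgk1, Slc16a1, Pdk1, Pdha1 and Tkt) the differences had mixed signs. Values per tumour are given for genes without overlap or with an unadjusted p under 0.05 and for the brightest gene of each step. They are also given for further genes that this rule does not cover, among them Slc2a1, Aldoa, Ldhb and Pgd. Up to 3 genes without overlap are named from each neighbouring list. Members and lists were chosen with earlier results of these data known. Alternatives were another pseudocount (1 or 64), no filter or the 60th percentile, quantile normalisation, median centring, no trend, array weights, averaged probe sets and each tumour left out. The number of arrays limits the precision.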

Additional observations from a re-analysis of the deposited data

Results flagged for a closer look

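Control signal for 18S ribosomal RNA, which enters no comparison of genes above, was higher on every Notch1f/f array than on any Notch1+/+ array in all 3 of its probe sets. The means were 285 ± 34.7 against 97.8 ± 30.5 for the 3' set, 217 ± 18.5 against 59.1 ± 32.6 for the 5' set and 247 ± 90.8 against 95.1 ± 45.1 for the middle set (SD, n = 3 each). The exact two-sided permutation p was 0.1 for each, the smallest that 3 against 3 allows. Other controls differed too. The 3 transferrin receptor sets were lower in the Notch1f/f tumours without overlap (log2 differences -1.45, -1.25 and -1.12), as was a dim set of pyruvate carboxylase (-0.45). The sets of beta-actin and Gapdh overlapped.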

How the results depend on the processing

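Over 16 alternatives, 0 of the pathway genes passed an adjusted p of 0.05 in limma, while 2 to 10 had an unadjusted p under 0.05. The number of all probe sets that passed was 5, and 3 with no filter, 15 with median centring, 27 with array weights and 2 to 14 with 1 tumour left out. The 5 genes at an unadjusted p of 0.05 became 3 with median centring or without trend, 10 with array weights, 8 with averaged probe sets and 2 to 8 with 1 tumour left out. The median log2 difference of the pathway genes, -0.14, was -0.28 with array weights, -0.05 with median centring and between -0.23 and -0.09 with 1 tumour left out. The cause was not tested. Of 208 values of 13 named genes, 202 kept their direction. Many of these could not change. The filter settings, no trend and control probe sets kept alter only the p-values, and averaging leaves a gene with 1 probe set as it was. The count is therefore no measure of robustness. With averaged probe sets, Slc2a3 turned to -0.17 and Pdha1 to -0.18, and with 1 tumour left out they ranged from -0.031 to 0.51 and from -0.11 to 0.32. Pfkl stayed between -1.70 and -0.99, with an adjusted p from 0.0750 to 0.487. No paired analysis was possible because the labels pair no tumours. The background of dim probe sets and 3 arrays per group limit all values.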
